A study of Mus musculus with 16 samples.

Results

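Pklr, Pdk1, Pdk4, Pck1, G6pc, Fbp1, Pfkfb1, Slc2a2 and Gys2 set how much glucose the liver takes up, breaks down, stores and makes. These 9 genes were chosen by name as regulators of glycolysis and gluconeogenesis, a rule that uses no measured value. Earlier results of these data were known when they were chosen. A probe set annotated to the gene alone was found for 8 of them, and Pfkfb1, whose enzyme both makes and removes the activator of phosphofructokinase, is not analysed here. All 8 passed the filter on low signals, among 13577 genes tested. Liver RNA was measured on 16 Affymetrix expression arrays. Each of 4 arms had 1 array on each of days 0, 2, 7 and 14 of regeneration, the regrowth of the liver that follows surgical removal of a share of it (partial hepatectomy).

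The MET_KO_canertinib arm combined a deletion of exon 16 of Met, the receptor of hepatocyte growth factor, with canertinib, an inhibitor of EGFR family kinases, given in the diet with 80 mg/kg as the aim. The MET_FLOX_canertinib arm had the canertinib diet without the deletion. The MET_KO arm had the deletion alone, and the MET_FLOX arm had neither. All 4 arms carried the same labelled genotype, Metff/ff:ERCre+/+, on a 129SV/C57BL/6 background, so the recombinase transgene was also present in the MET_FLOX arms. The deletion was made with a tamoxifen-inducible system, and the labels call the blockade of both receptors systemic; the promoter that drives the recombinase is not given. The labels give no age and do not say which arms received tamoxifen, or whether an array held RNA of 1 animal or of a pool. With 1 array for each arm and day, the p-values rest on departures of arrays from a course over days shared by the arms. Technical spread and spread between animals are both part of these departures and cannot be separated.

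In the liver, glucose enters and leaves through the transporter GLUT2, is stored as glycogen, or is broken down to pyruvate by glycolysis, whose last step is catalysed by pyruvate kinase. Pyruvate dehydrogenase passes pyruvate on to the citric acid cycle, and the pyruvate dehydrogenase kinases switch that enzyme off by phosphorylation. In fasting the flow is turned round: phosphoenolpyruvate carboxykinase, fructose-bisphosphatase and glucose-6-phosphatase carry the steps that glycolysis cannot run backwards, insulin lowers and glucagon raises their transcription, and the glucose made leaves the hepatocyte for the blood.

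Signals are MAS5 values on a linear scale, scaled by the authors so that the trimmed mean was nearly the same in every array. Array medians formed 2 sets, for which the labels have no name. The 6 arrays with low medians (156.4 to 188.7) were those of MET_KO and MET_FLOX from days 0, 2 and 7. The 10 arrays with high medians (244.0 to 265.0) were every canertinib array and the day 14 arrays of MET_KO and MET_FLOX. At days 0, 2 and 7 canertinib and array set therefore cannot be told apart, and only the 4 arrays of day 14 compare canertinib within a set. The ratio of 3' to 5' signal of the Gapdh control probes, a measure of RNA integrity, was 0.95 to 2.25 in the canertinib arrays, against 0.765 to 0.869 in the arrays without canertinib. At day 14 it was 1.128 in MET_KO_canertinib and 2.245 in MET_FLOX_canertinib, against 0.811 in both MET_KO and MET_FLOX. The day 14 comparison within a set therefore still differs in this ratio. Met gave signals of 982.2 to 1421 in MET_KO_canertinib, 1118 to 2014 in MET_FLOX_canertinib, 1011 to 2066 in MET_KO and 1041 to 1962 in MET_FLOX. Whether its probe set lies within the deleted exon was not settled by the sources at hand, and these values do not check the deletion. The tissue label was matched by hepatocyte transcripts, with Alb between 18701 and 117413 and Ttr between 22087 and 99789 over the 16 arrays.

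The 8 genes differed widely in how much they varied. Slc2a2 spanned 507.9 to 10819 and Pdk4 58.1 to 969.6 over the 16 arrays, ratios of 21.3 and 16.7 between the highest and the lowest array. The standard deviation of the log2 signal was 1.072 for Slc2a2 and 0.995 for Pdk4, against a median of 0.49 over all genes tested. Fbp1 was the steadiest of the 8 at 0.33, with 24134 to 57839, and Gys2 (1674 to 4167) and Pck1 (9883 to 28803) also lay below that median. G6pc ranged from 4156 to 22101, Pklr from 960.1 to 4032 and Pdk1 from 643.6 to 3341. Levels are per probe set, and no gene's level is set against another's.

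**Figure D1:**
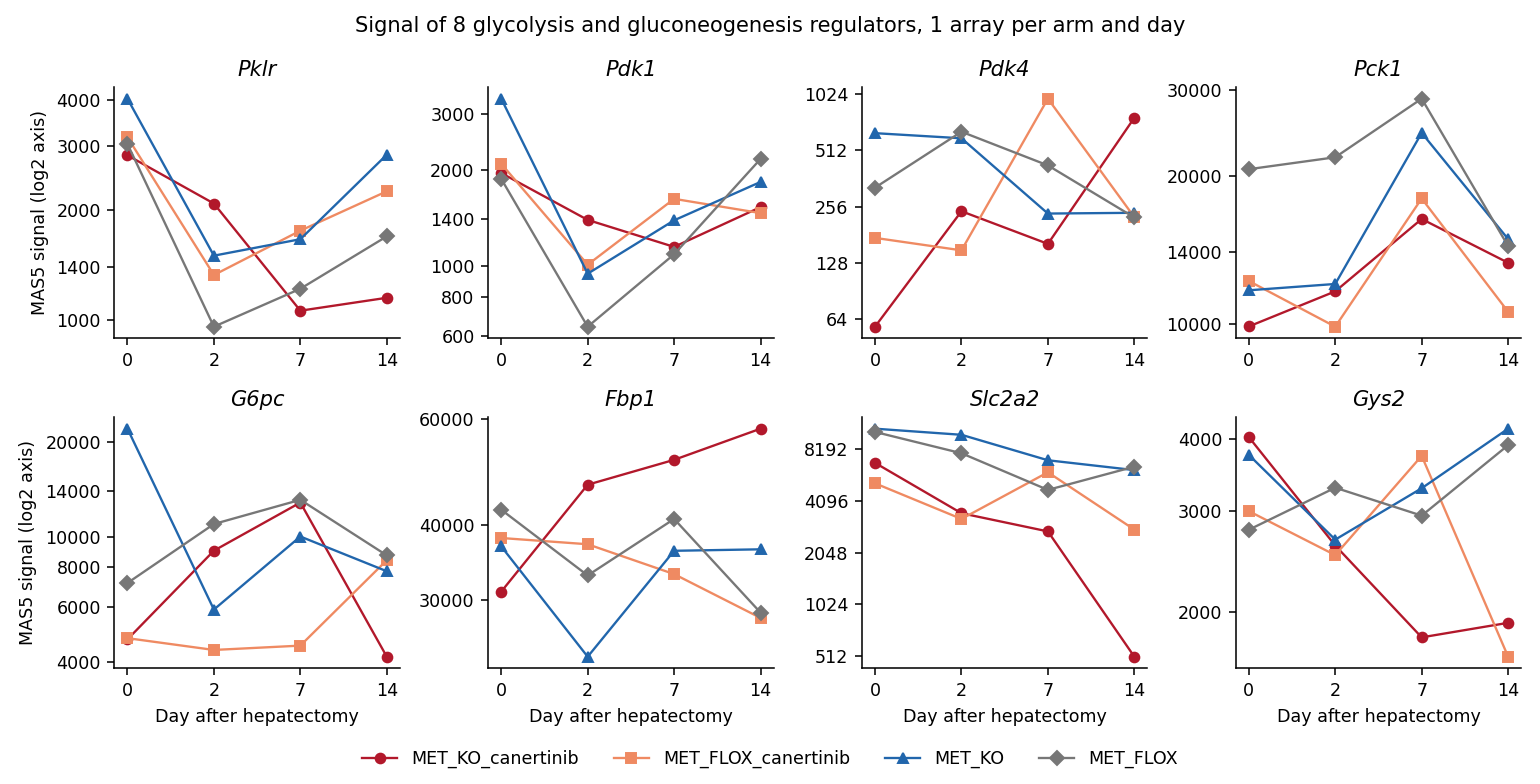
MAS5 signal (log2 axis, a separate scale for each gene) at days 0, 2, 7 and 14 (evenly spaced), 1 point for each array and 1 line for each arm. Pklr and Pdk1 were lower at day 2 than at day 0 in all 4 arms, and Slc2a2 was lowest in MET_KO_canertinib at day 14, at 507.9.

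Pklr and Pdk1 were the genes of the 8 called lower at day 2 than at day 0. Pklr encodes the pyruvate kinase of liver and red blood cells, and Pdk1 encodes a pyruvate dehydrogenase kinase, so that one closes glycolysis and the other controls what becomes of its product. Over the 4 arms the day 2 level was 0.44 of the day 0 level for Pklr and 0.432 for Pdk1. In limma's fit with arm as a block the log2 differences were −1.18 (SE 0.24, adjusted p = 0.0499) for Pklr and −1.21 (SE 0.24, adjusted p = 0.0407) for Pdk1. Both were lower in 4 of 4 arms. Slc2a2 also lay below its day 0 level in 4 of 4 arms, with −0.97 to −0.12, and was not called (−0.55, SE 0.42, adjusted p = 0.709). Pklr and Pdk1 are 2 of 8 genes called lower, against a background of 0.0516% of all genes tested.

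The Pklr signal at days 0, 2, 7 and 14 was 2823, 2084, 1062 and 1152 in MET_KO_canertinib, and 3163, 1329, 1757 and 2251 in MET_FLOX_canertinib. It was 4032, 1501, 1665 and 2834 in MET_KO, and 3032, 960.1, 1219 and 1695 in MET_FLOX. Every day 2 array lay below every day 0 array. In MET_KO_canertinib the signal was lowest at day 7, whereas the other 3 arms had their lowest array at day 2. Every arm had a higher signal at day 14 than at day 7. The day 2 minus day 0 difference was −0.44 in MET_KO_canertinib, −1.24 in MET_FLOX_canertinib, −1.42 in MET_KO and −1.64 in MET_FLOX.

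The Pdk1 signal was 1953, 1392, 1145 and 1527 in MET_KO_canertinib, and 2088, 1007, 1620 and 1462 in MET_FLOX_canertinib. It was 3341, 943.8, 1388 and 1831 in MET_KO, and 1872, 643.6, 1086 and 2162 in MET_FLOX. The order was like that of Pklr: day 2 lay below day 0 without overlap, and MET_KO_canertinib had its lowest array at day 7. The day 2 minus day 0 difference was −0.48 in MET_KO_canertinib, −1.04 in MET_FLOX_canertinib, −1.81 in MET_KO and −1.52 in MET_FLOX.

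Whether the arms differed here was tested as a difference in day 2 response, day 2 minus the mean of days 0, 7 and 14, between MET_KO_canertinib and MET_FLOX. It was 1.39 (SE 0.40, adjusted p = 0.912) for Pklr and 1.21 (SE 0.48, adjusted p = 0.946) for Pdk1, and neither passed. Limma called 0% of genes there, with 677 of 13577 at an unadjusted p under 0.05, and this single pair of day 2 arrays leaves 6 residual degrees of freedom. The other 6 genes had values between −0.76 and 0.52.

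Both calls at day 2 lay close to the threshold. Pklr passed in 2 of 16 fits that each left out 1 array, and Pdk1 in 5 of 16, with log2 differences of −1.51 to −1.05 for Pklr and −1.45 to −1.04 for Pdk1. Without the day 2 array of MET_KO_canertinib the differences were −1.51 (adjusted p = 0.000547) for Pklr and −1.45 (adjusted p = 0.0042) for Pdk1. Both also passed without the day 14 array of MET_KO_canertinib. Pdk1 alone passed when the day 7 or day 14 array of MET_FLOX_canertinib, or that of MET_FLOX at day 14, was left out, and neither passed without any one of the other 11 arrays.

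**Figure D2:**
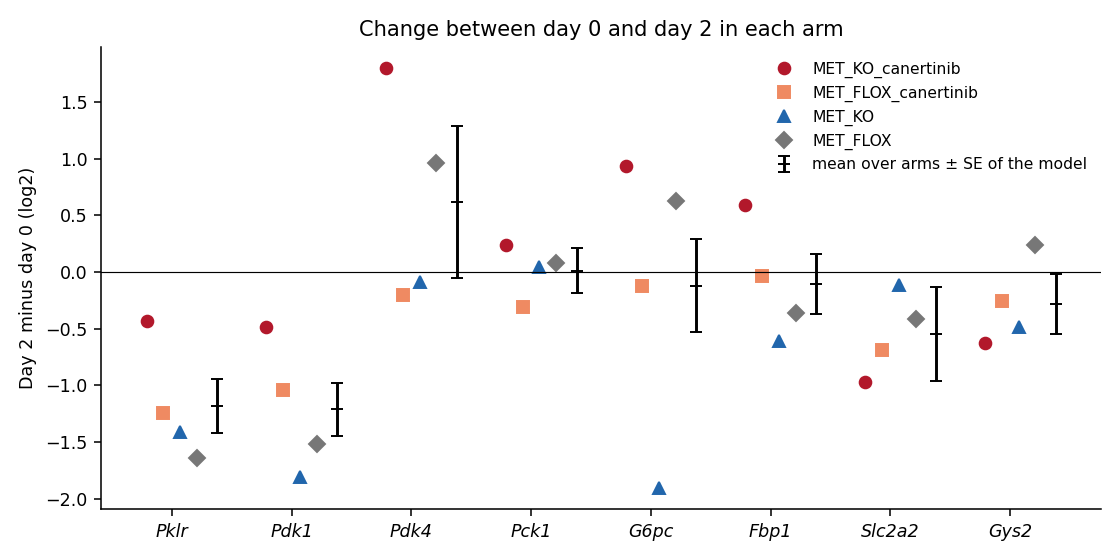
Day 2 minus day 0 (log2) for each gene, with 1 point for each arm and, in black, the mean over the 4 arms with the standard error of the model. Pklr, Pdk1 and Slc2a2 lie below 0 in all 4 arms, with MET_KO_canertinib nearest to 0 for Pklr and Pdk1 and farthest from it for Slc2a2, while the arms of Pdk4, Pck1, G6pc, Fbp1 and Gys2 lie on both sides of 0.

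The promoter windows of both genes are shown because the genes fell together. RefSeq windows (GRCm38.p6, 300 bases around a start site with most of them upstream, plus strand for both genes) were searched on both strands. The motifs were the TATA box (letters TATAAA), the CCAAT box, the E-box (letters CACGTG), the HNF1 core (letters GTTAAT), the FOXO type core (letters TGTTTT), and the cAMP response element (letters TGACGTCA) along with its core (letters TGACG), which lies within it. A further search, added after the windows were seen, was for CACG and CGTG on 1 strand with 9 bases between them, the spacing of the E-box parts in the carbohydrate response element that ChREBP binds. Capitals mark matches, with the first line from chr3:89136373-89136672 and the second from chr2:71872974-71873273.
Pklr, downstream start: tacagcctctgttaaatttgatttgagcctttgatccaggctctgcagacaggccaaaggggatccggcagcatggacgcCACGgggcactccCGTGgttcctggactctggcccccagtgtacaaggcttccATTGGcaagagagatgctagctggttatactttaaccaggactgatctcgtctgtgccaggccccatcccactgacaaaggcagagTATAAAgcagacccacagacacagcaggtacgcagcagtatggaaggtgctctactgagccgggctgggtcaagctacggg
Pdk1, upstream start: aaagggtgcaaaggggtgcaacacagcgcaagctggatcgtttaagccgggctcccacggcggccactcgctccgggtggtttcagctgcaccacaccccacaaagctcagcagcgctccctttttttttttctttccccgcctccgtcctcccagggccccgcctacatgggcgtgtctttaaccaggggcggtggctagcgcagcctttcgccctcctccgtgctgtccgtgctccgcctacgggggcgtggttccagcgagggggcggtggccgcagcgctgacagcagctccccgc
The Pklr window at the downstream start, which gives the liver form, held the spaced pair from −170, CCAAT on the minus strand at −117 and TATAAA at −31, counted from the start site. The spaced pair was found in 0.28% of 32851 windows of the table, CCAAT in 37.4% and TATAAA in 13.6%. The Pdk1 window held none of the motifs searched, and the upstream Pklr window held none either. A match is a description of letters and not a binding site.

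The probe sets of Pklr and Pdk1 were in accord at day 2 but not on canertinib. At day 2 all 3 Pklr probe sets and all 3 Pdk1 probe sets that passed the filter had negative differences, adjusted over 22317 probe sets. They were −1.18 (adjusted p = 0.0543), −0.82 (0.167) and −2.10 (0.0434) for Pklr, and −1.21 (0.0449), −1.70 (0.0154) and −1.35 (0.321) for Pdk1. In the canertinib arms against the arms without it, the Pklr probe set that stands for the gene (1438711_at) showed −0.07 (adjusted p = 0.787), 1421258_a_at showed 0.52 (adjusted p = 0.0185) and 1421259_at showed −1.05 (adjusted p = 0.0145). The last of these had 140.7 and 176.0 with canertinib at day 14, against 1295 and 260.7 without it. No single direction can therefore be given for Pklr with canertinib. For Pdk1, 1423748_at showed 0.01 (adjusted p = 0.98), 1423747_a_at −0.59 (adjusted p = 0.0272) and 1435836_at −0.48 (adjusted p = 0.261).

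**Figure D3:**
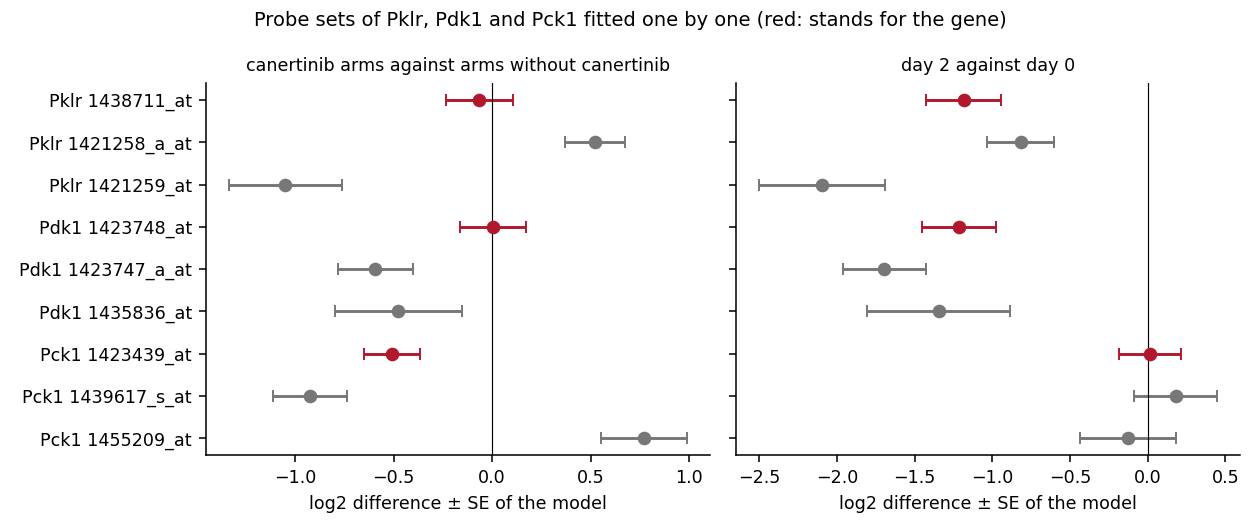
Log2 differences with the standard error of the model for each probe set of Pklr, Pdk1 and Pck1 that passed the filter, for the canertinib arms against the arms without canertinib (left) and for day 2 against day 0 (right); red marks the probe set that stands for the gene. The 6 Pklr and Pdk1 probe sets lie below 0 on the right, and the Pklr and Pck1 probe sets lie on both sides of 0 on the left.

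With canertinib, Slc2a2 and Pck1 were lower. Slc2a2 encodes GLUT2, the glucose transporter of the hepatocyte membrane, and its level in the canertinib arms was 0.411 of that in the arms without canertinib. Pck1 encodes the cytosolic phosphoenolpyruvate carboxykinase, the first committed enzyme of gluconeogenesis, and its level was 0.704 of that without canertinib. The log2 differences were −1.28 for Slc2a2 (SE 0.30, adjusted p = 0.00718) and −0.51 for Pck1 (SE 0.14, adjusted p = 0.0153), with day and arm in limma's fit. These are 2 of 8 genes called lower, against 10.6% of all genes called lower and 24% called higher. The 8 genes had a median of −0.44 and all genes one of 0.14, which is a description of the list and not a test.

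The Slc2a2 signal at days 0, 2, 7 and 14 was 6840, 3480, 2727 and 507.9 in MET_KO_canertinib, and 5198, 3223, 6029 and 2794 in MET_FLOX_canertinib. It was 10819, 9967, 7082 and 6207 in MET_KO, and 10355, 7782, 4760 and 6498 in MET_FLOX. Both canertinib arrays lay below both arrays without canertinib at days 0, 2 and 14 and overlapped with them at day 7. The mean difference by day was −0.83 at day 0, −1.39 at day 2, −0.52 at day 7 and −2.39 at day 14. Day 14 alone compares arrays of 1 set, and with the array set in the fit the difference was −2.39 (SE 0.51, adjusted p = 0.0852) and did not pass.

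Slc2a2 was also called between the arms with the Met deletion. It was lower in MET_KO_canertinib than in MET_KO, with a log2 difference of −1.78 (SE 0.42, adjusted p = 0.031), at 4 of 4 days, the one call among the 8 genes against a background of 2.39% called lower. In MET_FLOX_canertinib against MET_FLOX it was −0.78 (SE 0.42, adjusted p = 0.218), lower at 3 of 4 days. The genotype by canertinib interaction, which tests the difference between these values, was −0.996 (SE 0.592, adjusted p = 1). The day 14 array of MET_KO_canertinib carried much of the size: without it the difference from MET_KO was −1.16 (adjusted p = 0.0224). The call was lost without the day 2 or day 7 array of MET_KO_canertinib, or without the day 0, day 2 or day 7 array of MET_KO (adjusted p = 0.0588 to 0.0943).

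Some markers of other cells, mainly of neutrophils and lymphocytes, were also called higher with canertinib. Whether they ran in parallel with Slc2a2 or Pck1 over the arrays was not tested. Pck1 was 13338 in MET_KO_canertinib at day 14, against 9883 on its lowest array, MET_FLOX_canertinib at day 2. The array with the lowest Slc2a2 signal, MET_KO_canertinib at day 14, had a summed signal of the 7 measured neutrophil markers of 43297, against 2501 as the lowest canertinib array and 1654 to 4354 in the arrays without canertinib. Most of that sum came from S100a8 (22731) and S100a9 (10668). Ngp (6180), Camp (398) and Mmp8 (1100) were also highest of the 16 arrays there, while Cxcr2 (125) and Ltf (2095) were not. S100a8 and S100a9 were next highest in MET_KO_canertinib at day 2, at 4349 and 2044. In the canertinib arms, 4 of 5 neutrophil markers and 4 of 5 lymphocyte markers that passed the filter were called higher, as were 24% of all genes. Lymphocyte sums were 3472 to 5214 with canertinib, against 1330 to 4313 without it. At day 14, where the arrays are of 1 set, they overlapped, with 5214 and 3684 against 4313 and 3828. Of 9 hepatocyte markers, 6 were called higher and 0 lower, with sums of 381179 to 686643 with canertinib, against 173851 to 475181 without it. Of 6 periportal and 8 pericentral hepatocyte markers, 1 each was called higher and none lower. The array of MET_KO_canertinib at day 14 stood apart here too, as the lowest of the 16 for 3 of the 6 periportal and 4 of the 8 pericentral markers. On it Cyp2f2 was 2542 (11502 to 40635 on the other arrays), Hal 1361 (2329 to 8296), Cyp1a2 1458 (9678 to 20738) and Cyp2c29 1234 (13545 to 31884). Cps1 (18121.5), Oat (13174.5) and Axin2 (320.7) were also lowest there. Periportal Alb (80625), Arg1 (36166) and Ass1 (634.5) lay within the range of the others. So did pericentral Glul (5714), Cyp2e1 (52688), Slc1a2 (2026) and Lgr5 (1077). How many of all genes were lowest on this array was not counted. Without that array Slc2a2 was −0.97 (adjusted p = 0.00234) and Pck1 −0.56 (adjusted p = 0.00625) in the canertinib arms against the arms without canertinib. None of 8 Kupffer cell markers was called with canertinib. Of 6 endothelium markers 1 was called higher, and of 8 stellate cell and matrix markers 1 was called higher and 1 lower. No marker was listed at 0 on any array. The part of cell makeup, array set or RNA integrity in the Slc2a2 and Pck1 differences was not tested. In bulk tissue, fewer cells of a type and less RNA per cell cannot be told apart.

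The Pck1 signal was 9894, 11665, 16379 and 13338 in MET_KO_canertinib, and 12248, 9883, 18034 and 10598 in MET_FLOX_canertinib. It was 11723, 12076, 24532 and 14906 in MET_KO, and 20689, 21880, 28803 and 14425 in MET_FLOX. The canertinib arrays lay below the others at days 2, 7 and 14 and overlapped with them at day 0, where MET_KO was also low. The mean difference by day was −0.50, −0.60, −0.63 and −0.30 at days 0, 2, 7 and 14. With the array set in the fit, where the value is that of day 14, the difference was −0.30 (SE 0.27, adjusted p = 0.715).

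Pck1 was lower in MET_FLOX_canertinib than in MET_FLOX, with a log2 difference of −0.76 (SE 0.20, adjusted p = 0.0418), at 4 of 4 days, the one call among the 8 genes against a background of 2.67% called lower. In MET_KO_canertinib against MET_KO it was −0.26 (SE 0.20, adjusted p = 0.374), also lower at 4 of 4 days, and the interaction was 0.50 (SE 0.28, adjusted p = 1). The call in the flox pair held in 6 of 16 fits that each left out 1 array. It was lost without any one of the day 0, day 2 and day 7 arrays of MET_FLOX_canertinib or of MET_FLOX, and without the day 0 or day 7 array of MET_KO_canertinib or of MET_KO, with adjusted p between 0.0506 and 0.154.

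The 3 Pck1 probe sets did not all run the same way. The probe set that stands for the gene, 1423439_at, and 1439617_s_at (2726 to 15009) were both lower with canertinib, with log2 differences of −0.51 and −0.92 (SE 0.19, adjusted p = 0.0042). The remaining 1455209_at, with signals of 83.2 to 500.4, was higher by 0.77 (SE 0.22, adjusted p = 0.0169). At day 14 it had 500.4 and 375.8 with canertinib, against 315.6 and 271.1 without it.

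The windows at the start sites of Slc2a2 (chr3:28697653-28697952) and Pck1 (chr2:173152823-173153122), both on the plus strand, are shown as the genes called lower with canertinib. Capitals mark matches to the same motifs.
Slc2a2: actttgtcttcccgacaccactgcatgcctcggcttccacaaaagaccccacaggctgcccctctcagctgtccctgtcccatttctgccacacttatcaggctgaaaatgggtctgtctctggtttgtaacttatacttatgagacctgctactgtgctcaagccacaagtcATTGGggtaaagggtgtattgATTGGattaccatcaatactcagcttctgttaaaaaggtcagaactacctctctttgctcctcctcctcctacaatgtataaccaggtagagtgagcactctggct
Pck1: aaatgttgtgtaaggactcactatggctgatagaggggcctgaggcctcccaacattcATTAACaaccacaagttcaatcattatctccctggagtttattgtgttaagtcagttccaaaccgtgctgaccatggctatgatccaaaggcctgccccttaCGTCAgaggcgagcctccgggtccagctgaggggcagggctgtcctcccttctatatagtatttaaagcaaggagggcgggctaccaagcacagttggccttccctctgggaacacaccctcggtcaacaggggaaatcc
The Slc2a2 window held CCAAT on the minus strand at −77 and −56 and none of the other motifs. The Pck1 window held the core of the cAMP response element on the minus strand at −90 and the HNF1 core on the minus strand at −192. That core TGACG was found in 20.8% of all windows and GTTAAT in 7.1%. No window of these genes held CACGTG, found in 7.15% of all windows, or the whole TGACGTCA, found in 1.79%. The G6pc window held the HNF1 core at −221, TATAAA at −29, CCAAT at −214 and −204 and TGTTTT at −188, −174 and −26, the last overlapping TATAAA. Of all windows, 22.1% held the FOXO type core.

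**Figure D4:**
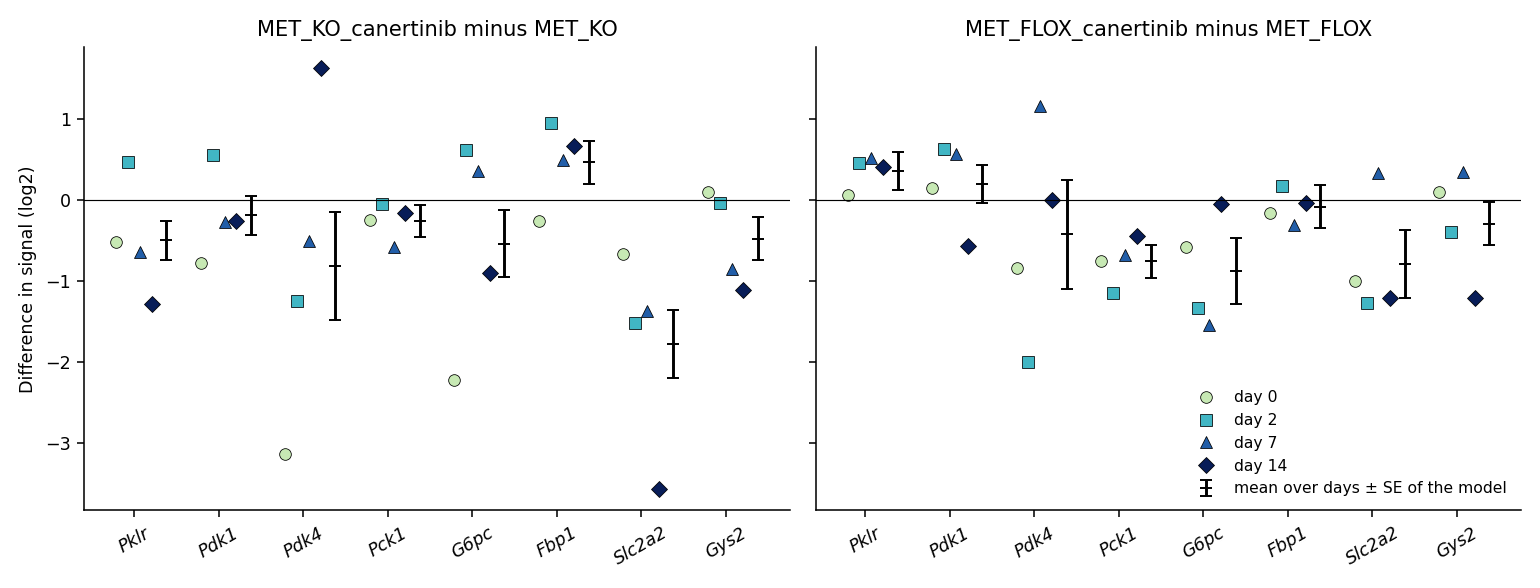
Log2 difference in signal at each day (points) and the mean over days with the standard error of the model (black), for MET_KO_canertinib minus MET_KO (left) and MET_FLOX_canertinib minus MET_FLOX (right). Pck1 lies below 0 at 4 of 4 days in both panels, and Slc2a2 at 4 of 4 days on the left and 3 of 4 on the right.

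The other enzymes of glucose output, G6pc and Fbp1, gave no call. G6pc encodes the catalytic subunit of glucose-6-phosphatase, which releases free glucose. Its signal was 4719, 9039, 12861 and 4156 in MET_KO_canertinib, and 4761, 4367, 4508 and 8432 in MET_FLOX_canertinib. It was 22101, 5871, 10028 and 7774 in MET_KO, and 7132, 10989, 13124 and 8734 in MET_FLOX. The groups overlapped at days 2, 7 and 14, and at day 0 both canertinib arrays were below both others. The difference over the days was −0.71 (SE 0.29, adjusted p = 0.071). Fitted with the array set it was −0.48 (adjusted p = 0.818). MET_FLOX_canertinib lay below MET_FLOX at 4 of 4 days and MET_KO_canertinib below MET_KO at 2 of 4.

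Fbp1 encodes the liver fructose-bisphosphatase, which acts between Pck1 and G6pc. Its signal was 30970, 46661, 51329 and 57839 in MET_KO_canertinib, and 38040, 37140, 33123 and 28003 in MET_FLOX_canertinib. It was 36834, 24134, 36219 and 36426 in MET_KO, and 42395, 32953, 40921 and 28575 in MET_FLOX. MET_KO_canertinib had the lowest of the 4 arms at day 0 and the highest at days 2, 7 and 14. The difference between canertinib arms and arms without it was 0.19 (SE 0.19, adjusted p = 0.429), MET_KO_canertinib against MET_KO gave 0.47 (SE 0.26, adjusted p = 0.229), and MET_FLOX_canertinib against MET_FLOX gave −0.08 (SE 0.26, adjusted p = 0.861).

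Gys2 encodes the liver glycogen synthase, which builds the stored polymer. Its signal was 4030, 2612, 1809 and 1917 in MET_KO_canertinib, and 2997, 2513, 3738 and 1674 in MET_FLOX_canertinib. It was 3753, 2674, 3284 and 4167 in MET_KO, and 2781, 3291, 2943 and 3901 in MET_FLOX. Both canertinib arrays were below both others at day 2, with a mean difference of −0.21, and at day 14, with one of −1.16, and at days 0 and 7 the groups overlapped. The difference over the days was −0.38 (SE 0.19, adjusted p = 0.126). Fitted with the array set it was −1.16 (SE 0.30, adjusted p = 0.14).

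Centring each array on its own median moves all genes of an array by the same amount. It removes the gap in medians between the array sets, and other differences between the sets may remain. Where canertinib and array set coincide, they still cannot be told apart. With the array set in the fit, none of the 8 genes was called with canertinib. After centring, 4 of 8 genes were called lower with canertinib. They were Slc2a2 (−1.49, adjusted p = 0.003), Pck1 (−0.71, adjusted p = 0.00448), G6pc (−0.91, adjusted p = 0.0321) and Gys2 (−0.59, adjusted p = 0.0221). On that scale 1793 genes were called higher and 2716 lower, against 3255 higher and 1444 lower on the deposited scale. After quantile normalization Slc2a2 alone was called (−1.11, adjusted p = 0.0403). The sign of Slc2a2, Pck1, G6pc and Gys2 was negative on all 3 scales, while that of Fbp1 was positive as deposited (0.19) and negative after centring (−0.01) and quantile normalization (−0.27).

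Pdk4 encodes the pyruvate dehydrogenase kinase induced in fasting. Its signal was 58.1, 241.6, 161.5 and 766.1 in MET_KO_canertinib, and 173.9, 149.1, 969.6 and 224.5 in MET_FLOX_canertinib. It was 633.4, 594.6, 234.8 and 237.0 in MET_KO, and 323.2, 644.6, 425.5 and 223.7 in MET_FLOX. The arms had no common course: the highest array came at day 14 in MET_KO_canertinib, day 7 in MET_FLOX_canertinib, day 0 in MET_KO and day 2 in MET_FLOX. Canertinib arrays were below the others at days 0 and 2, with mean differences of −1.98 and −1.62, and the mean difference was 0.33 at day 7 and 0.82 at day 14. Over the days the difference was −0.62 (SE 0.47, adjusted p = 0.324).

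The Met deletion gave no call among the 8 genes with or without canertinib. In the knockout arms against the flox arms the differences lay between −0.27 (Slc2a2, SE 0.30) and 0.21 (G6pc, SE 0.29), and limma called 0% of genes, with 322 of 13577 at an unadjusted p under 0.05. MET_KO against MET_FLOX also had 0% called, with 350 at an unadjusted p under 0.05. Its largest values were 0.56 for Pklr (SE 0.24, adjusted p = 1), higher at 4 of 4 days, and −0.46 for Pck1 (SE 0.20, adjusted p = 1), lower at 3 of 4 days. In MET_KO_canertinib against MET_FLOX_canertinib 0.00737% of genes were called, with 607 at an unadjusted p under 0.05, and the values ranged between −0.76 (Slc2a2, SE 0.42) and 0.43 (Fbp1, SE 0.26).

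The interaction called 0.0147% of all genes and none of the 8, with 601 genes at an unadjusted p under 0.05. Its value for Pklr was −0.86 (SE 0.34, adjusted p = 1). Pklr stood at −0.49 in MET_KO_canertinib against MET_KO (SE 0.24, adjusted p = 0.17), below 0 at 3 of 4 days, and at 0.36 in MET_FLOX_canertinib against MET_FLOX (SE 0.24, adjusted p = 0.315), above 0 at 4 of 4 days. As the Pklr probe sets differ with canertinib, these values hold for 1438711_at.

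The arm with both receptors targeted was set against MET_FLOX with neither. None of the 8 genes was called, against a background of 2.88% called in either direction, and 3781 of 13577 genes had an unadjusted p under 0.05 in limma. Slc2a2 came nearest, at −1.55 (SE 0.42, adjusted p = 0.0573), with Pck1 at −0.72 (SE 0.20, adjusted p = 0.059). Both were lower in MET_KO_canertinib at 4 of 4 days, as was G6pc at −0.49 (SE 0.41, adjusted p = 0.434). Without the day 14 array of MET_KO_canertinib or of MET_FLOX_canertinib 2 genes passed, and without that of MET_FLOX 1 passed.

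At later days no gene of the 8 was called against day 0. At day 7 limma called 0.00737% of genes, with 662 at an unadjusted p under 0.05, and Pklr stood at −1.20 (SE 0.24, adjusted p = 0.485), lower in 4 of 4 arms, a value as large as the one called at day 2. Pdk1 was at −0.79 (SE 0.24, adjusted p = 0.695), lower in 4 of 4 arms, and Pck1 at 0.71 (SE 0.20, adjusted p = 0.67), higher in 4 of 4 arms with 0.48 to 1.06. One gene of the 8 passed at day 7 without the day 2 array of MET_KO_canertinib. At day 14, 0.081% of genes were called, with 2240 at an unadjusted p under 0.05. Slc2a2 was at −1.52 (SE 0.42, adjusted p = 0.148), lower in 4 of 4 arms, with −3.71 in MET_KO_canertinib and −0.89, −0.80 and −0.67 in MET_FLOX_canertinib, MET_KO and MET_FLOX. Pklr was at −0.78 (SE 0.24, adjusted p = 0.181), and no test of day 14 against day 7 was made.

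Across the 16 arrays, with each array centred on its median, Pklr and Pdk1 had a Pearson r of 0.82, and Slc2a2 and Gys2 one of 0.78. Removing the mean of each array set left 0.83 and 0.71. The r of Pck1 with G6pc was 0.52 over all arrays and 0.12 within the sets, and that of Fbp1 with Slc2a2 was −0.30 and −0.60. The arrays share arms, days and scaling, so these values are descriptions.

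**Figure D5:**
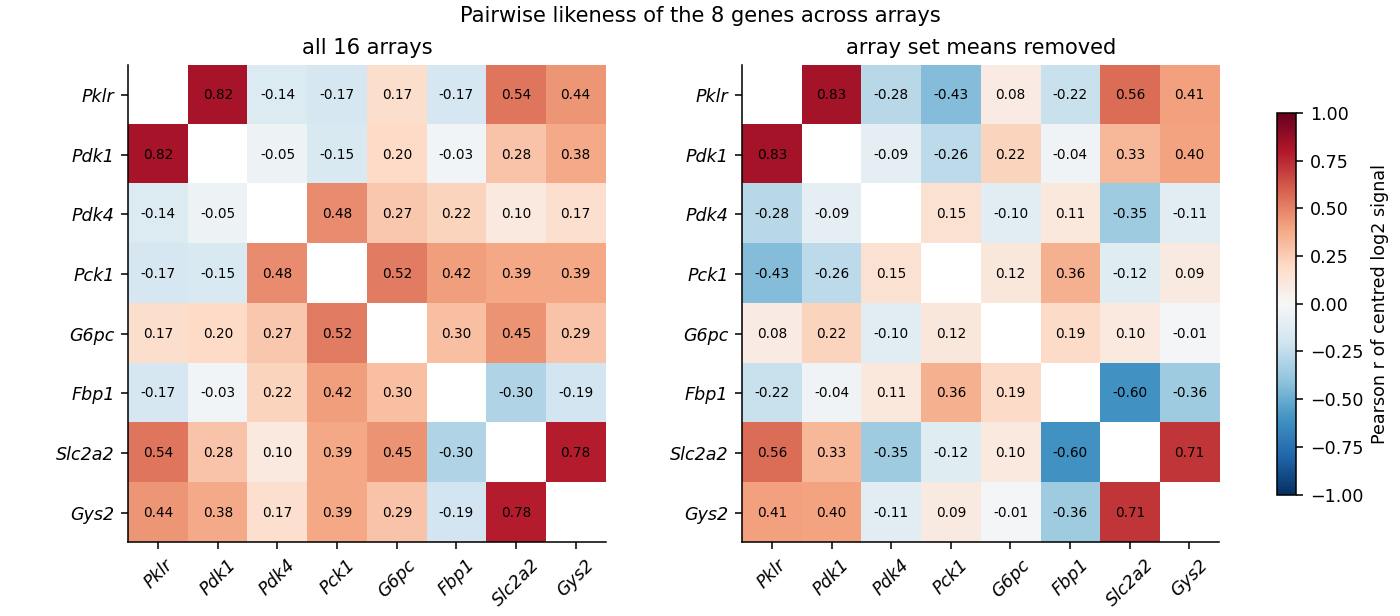
Pearson r between the log2 signals of each pair of the 8 genes over the 16 arrays, each array centred on its median (left), and after the mean of each array set was removed (right). Pklr with Pdk1 (0.82 and 0.83) and Slc2a2 with Gys2 (0.78 and 0.71) are the highest pairs in both panels.

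The genes of the whole table with the highest r over the 16 arrays were Mfsd4b1 (0.86) and Arrdc3 (0.84) for Pklr, and H2-Aa (0.86) and Usp48 (0.85) for Pdk1. They were Akr1c14 (0.95) and Nrn1 (0.94) for Slc2a2, Rhbg (0.88) and Ctsd (0.88) for Pck1, Grk5 (0.93) and Stra6l (0.89) for G6pc, and Mat1a (0.86) and Myo1d (0.79) for Fbp1. For Gys2 they were Fam241b (0.90) and Mia2 (0.86), and for Pdk4 App (0.84) and Ddx50 (0.83). These were picked as the highest of 13577 genes.

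Of the other genes listed for glucose metabolism and its control, 110 were tested, and 15 were higher and 11 lower in the canertinib arms, where 24% of all genes were called higher and 10.6% lower. A share of 15 in 110 lies below that background, and 11 in 110 lies near it. The medians were 0.00 for these genes and 0.14 for all genes. Glycolysis enzymes had 5 higher and 1 lower of 14, gluconeogenesis enzymes and substrate entry 0 and 1 of 13, and glycogen metabolism 1 and 3 of 15. The pyruvate dehydrogenase complex had 0 higher and 3 lower of 10, and the enzymes of fructose 2,6-bisphosphate with glucokinase control 2 and 0 of 5. Fructose and galactose entry had no call among 3, glucose transporters had 1 higher of 7, transcription factors 2 higher and 2 lower of 20, insulin, glucagon and glucocorticoid signalling 2 higher of 17, and the pentose phosphate pathway 2 higher and 1 lower of 6. The counts were 6 higher and 33 lower with arrays centred, 11 and 9 with quantile normalization. No gene of these lists was called when the array set entered the fit. The counts under these 3 settings are given without the share of all genes beside them, and are not read as results about the lists.

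The pathway genes with the smallest p were Ugp2, Pfkfb4, Dlat and Ldhb. Ugp2, which makes UDP-glucose for glycogen synthesis, had signals of 3679 to 6802 with canertinib, against 7075 to 14343 without it, with no overlap. Its difference was −0.83 (SE 0.13, adjusted p = 0.00194). Fitted with the array set it was −1.17 (adjusted p = 0.0687). Dlat, a subunit of the pyruvate dehydrogenase complex, had 434.5 to 780.7 with canertinib, against 607.0 to 1483 without it (−0.84, SE 0.15, adjusted p = 0.00312). Pfkfb4, an enzyme of fructose 2,6-bisphosphate, was 0.94 higher (SE 0.15, adjusted p = 0.00194). Ldhb, a lactate dehydrogenase subunit, was 1.31 higher (SE 0.24, adjusted p = 0.00325). At day 14 Ldhb had 5435 and 3797 with canertinib, against 5102 and 3973 without it, and with the array set in the fit its difference was 0.01 (adjusted p = 0.993).

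Among pairs of arms, MET_KO_canertinib against MET_FLOX had 0 pathway genes higher and 2 lower, Dlat (−0.96, adjusted p = 0.0401) and Ugp2 (−0.78, adjusted p = 0.0414), beside 2.88% of all genes called in either direction. MET_KO_canertinib against MET_KO had 4 higher and 3 lower of 110, near the shares over all genes of 5.84% higher and 2.39% lower. The smallest p belonged to Ugp2 (−1.11), Pfkfb4 (1.07), Slc2a3 (1.17), the neuronal type glucose transporter, and Pygl (−1.06), the liver glycogen phosphorylase. MET_FLOX_canertinib against MET_FLOX had 3 higher and 4 lower of 110, where 4.04% of all genes were called higher and 2.67% lower. There Dld (−0.92), the dihydrolipoamide dehydrogenase subunit, Pfkfb4 (0.81), Dlat (−0.84) and Taldo1 (−0.72), the transaldolase of the pentose phosphate pathway, had the smallest p. No pathway gene was called in the comparisons of genotype, in the interaction or against day 0 at days 2, 7 and 14. With the array set in the fit the counts in these pairs were also 0 and 0, again without the share of all genes beside them.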

How the data were processed

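The deposited values are MAS5 signal intensity for each probe set on a linear scale, per the labels and the submitters' processing notes; 6 ug of total RNA was labelled for each array. No source used here states a version of MAS5. Of 45101 probe sets, 64 controls were left out, and the 34945 that the platform annotation gives to 1 gene were used (932 name several genes and 9160 none). Signals were set on a log2 scale after 16 was added. Probe sets above their own array's median on at least 4 of 16 arrays were kept, which left 22317, and the one with the highest mean log2 value stood for its gene (13577 genes).

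Arm and day were fitted as additive terms with limma 3.58.1 in R 4.3.3, with moderated variances that follow an intensity trend (residual degrees of freedom: 9, or 6 for the day 2 response). Benjamini-Hochberg adjustment ran over all genes, two-sided, at a threshold of 0.05. Errors are standard errors of the model, and departures of an arm from the shared course count as error. No arm has a replicate at a day, and the number of arrays limits the precision. The script was tested on simulated data. The array set, parted at a median signal of 216.35, was added as a term in a further fit with 8 residual degrees of freedom.

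The genes, the pathway and marker lists, the tests and the alternatives were chosen with earlier results of these data known. From the pathway lists, up to 4 called genes with the smallest p in each comparison were named, and for each of the 8 genes the 2 others with the highest r. Fits of single probe sets and the search for the spaced motif were added after the data were seen. RefSeq promoter windows were found for 8 of the 9 genes, with Gys2 the one without an entry.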

Additional observations from a re-analysis of the deposited data

Results flagged for a closer look

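Of 32 groups of 4 arrays, 1 for each gene in each arm, 2 held an array whose gap to its nearest neighbour was above the 95% limit of Dixon's test; chance gives such a gap in about 1 in 20 groups. G6pc stood at 8432 in MET_FLOX_canertinib at day 14, above the 4367 to 4761 of the other 3 arrays of that arm. Fbp1 stood at 24134 in MET_KO at day 2, below the 36219 to 36834 of the other 3 arrays of that arm. The arrays of an arm are different days and not replicates of a day.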

How the results depend on the processing

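The count of the 8 genes called with canertinib was 2 as reported, 0 with the array set in the fit, 4 with arrays centred, and 1 each after quantile normalization, with the mean of all probe sets of a gene and without the day term; it was 2 to 3 when 1 array was left out. In MET_FLOX_canertinib against MET_FLOX it was 1 as reported and 0 with the array set, quantile normalization, no filter on low values, the mean of all probe sets and no day term (0 to 2 with 1 array left out; 2 without the day 14 array of MET_KO_canertinib). In MET_KO_canertinib against MET_KO it was 1 as reported and 0 with the array set, quantile normalization and no day term (0 to 1 with 1 array left out). In MET_KO_canertinib against MET_FLOX it was 0 as reported and 2 with arrays centred (0 to 2 with 1 array left out). At day 2 it was 2 as reported, 1 with quantile normalization, a pseudocount of 1, no filter, the mean of all probe sets and no arm term, and 0 without the intensity trend (0 to 2 with 1 array left out). At day 7 it was 0 as reported and 0 to 1 with 1 array left out. The calls of Slc2a2 and Pck1 with canertinib held in 16 of 16 fits that left out 1 array. The Pck1 probe set 1455209_at turned the sign round, with 0.77 in the canertinib arms against those without and 0.73 in MET_FLOX_canertinib against MET_FLOX. Outside the reported setting these counts are given here without the share of all genes called, and the cause of the changes was not tested. For the day 2 response, the fit without a block and the fits without the day 2 array of either arm were not run. No paired analysis was possible because the replicate number of an array is its day, which the fits already hold as a block.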
